A study of Mus musculus with 18 samples.

Results

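AP-1 is a family of paired transcription factors, and chromatin accessibility was examined here around 10 of its genes in mouse retina: Fos, Fosb, Fosl1, Fosl2, Jun, Junb, Jund, Atf3, Batf and Maff. Each gene was given a window from 50 kb before its start to 10 kb past its end (mm10, GENCODE M21), and every peak of the 18 deposited lists that overlapped a window was kept. The windows held 1383 of 911837 peaks. Merged across libraries, these formed 87 of the 73567 regions called in at least 2 libraries, plus 16 regions of 1 library each. The 10 genes are of 21938 protein-coding genes.

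The assay was ATAC-seq on bulk retina of WT mice (the study's text names C57BL/6J or C57BL/6 mice for its other IOP experiments), in 6 groups of 3 libraries. At 3 and at 18 months of age, 1 group came from eyes whose intraocular pressure (IOP) had been raised to 30 mmHg for 1 hour, 1 from the contralateral eyes of treated animals, and 1 from untreated mice. The treated and contralateral retinas carry the label day 2 after IOP, while the study's text gives a later day. All samples share a label text on the drug dasatinib, and which retinas, if any, were exposed to it cannot be read from the labels. The labels' preparation text describes crosslinked chromatin and an antibody to the histone mark H3K27ac, whereas their titles name ATAC-seq and the study's account of the accessibility assay has no antibody step. The values were read as ATAC-seq peaks. For 4 of the 6 untreated libraries the deposited list carries another replicate number than the title, and the title's is used here. The contralateral eye belongs to an animal that went through the procedure, and the untreated libraries had shorter shortest peaks (79 to 89 bp) than the rest (114 to 157 bp), so animal treatment and library processing cannot be told apart between these kinds of control. Among the rest, the shortest peak was 114 to 122 bp in 3-month contralateral replicate 2 and IOP replicate 1. The same held at 18 months for contralateral replicates 1 and 3 and IOP replicate 1. In the others it was 148 to 157 bp. These ranges are the classes of the shortest peak used below, and they were unevenly spread over the contralateral and IOP groups at 18 months.

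Libraries held 36011 to 66160 peaks and called 34252 to 58093 of the 73567 regions. The files hold no read counts, so the depth behind a missing call is unknown. Promoters of 6 of 7 rod and cone genes were called in all 18 libraries, whereas none of 6 microglial promoters was, and 5 of these were called in no library. Blood genes (0 of 3 promoters called in any library) were also without calls. Other lists were mixed. Of 6 ganglion cell and 6 Müller glia promoters, 2 of each were called in all libraries and 1 of each in none (Sncg and Aqp4). Mitf, of the pigment epithelium, and Kdr, of endothelium, were called in all 18, and 3 promoters of each of these lists in none. Actn2, of tissues outside the eye, was called in 16. In bulk tissue, fewer cells of a type and less accessible chromatin per cell cannot be told apart.

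AP-1 proteins bind DNA as pairs joined by a leucine zipper. FOS proteins need a partner, usually a JUN protein, while JUN proteins can also pair with themselves, with ATF and BATF proteins or with each other. Many of these genes are immediate early genes. Stress kinases and serum response factor, acting at pre-existing promoter sites such as the CArG box, switch them on within minutes. In injured retinal ganglion cells JUN and ATF3 are known markers of the damage response.

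The sequences below, from mm10 (GRCm38.p6) and written 5′ to 3′ on the strand of the gene, are those to which the results refer. Capitals mark matches, on either strand, to TGANTCA (the AP-1 site), TGACGTCA (the cyclic AMP response element), TGACATCA (the AP-1 site variant of the Jun promoter), TGCTGAC (a short MAF site), TAATCC (a photoreceptor homeobox site) or the CArG box. The Fos stretch runs from 450 to 151 bases before the start (chr12:85473440-85473739) and is shown because the median summit of the highest promoter peak, at -264 bases (-332 to -31 over the 18 libraries), lies in it. It holds a CArG box with a short MAF site beside it. The Jun stretch is the 250 bases before the start at chr4:95052223-95052472 and holds TGACATCA.
Fos: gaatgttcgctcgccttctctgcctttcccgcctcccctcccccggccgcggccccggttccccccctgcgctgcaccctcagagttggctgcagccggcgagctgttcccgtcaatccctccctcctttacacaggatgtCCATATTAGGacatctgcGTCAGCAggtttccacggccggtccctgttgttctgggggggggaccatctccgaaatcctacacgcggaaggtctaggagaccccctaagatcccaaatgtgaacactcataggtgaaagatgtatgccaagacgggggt
Jun: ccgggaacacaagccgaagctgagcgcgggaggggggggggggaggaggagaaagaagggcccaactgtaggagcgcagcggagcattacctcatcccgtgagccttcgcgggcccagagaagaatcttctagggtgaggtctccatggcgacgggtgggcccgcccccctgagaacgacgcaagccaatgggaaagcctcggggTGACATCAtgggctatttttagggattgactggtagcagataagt
The Maff stretch is the 250 bases before the second of its 3 annotated starts (chr15:79347270-79347519) and the Junb stretch lies about the summit of a region at +2.1 kb in an annotated intron (chr8:84976508-84976757). These are the promoter and the region whose ranks rose after IOP below. The former holds TGACGTCA and the latter a CArG box.
Maff: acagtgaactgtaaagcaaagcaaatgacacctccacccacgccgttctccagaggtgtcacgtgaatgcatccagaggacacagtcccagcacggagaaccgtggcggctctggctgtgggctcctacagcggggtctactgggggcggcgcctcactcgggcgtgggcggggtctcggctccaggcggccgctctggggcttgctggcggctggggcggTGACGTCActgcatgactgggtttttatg
Junb +2.1 kb: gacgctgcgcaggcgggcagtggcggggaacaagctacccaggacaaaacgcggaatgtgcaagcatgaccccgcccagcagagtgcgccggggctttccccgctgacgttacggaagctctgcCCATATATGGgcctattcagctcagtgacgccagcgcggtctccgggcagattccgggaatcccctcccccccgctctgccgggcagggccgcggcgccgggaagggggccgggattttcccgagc
The Batf stretch is the 250 bases before the start (chr12:85686419-85686668), shown because Batf was the single member without a called promoter, and holds none of the 6 motifs.
Batf: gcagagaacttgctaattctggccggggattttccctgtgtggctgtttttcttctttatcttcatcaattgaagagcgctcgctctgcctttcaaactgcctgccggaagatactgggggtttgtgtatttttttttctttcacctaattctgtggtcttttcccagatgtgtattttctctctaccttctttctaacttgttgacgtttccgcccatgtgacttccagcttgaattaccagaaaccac

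As a background for these matches, TGACGTCA was found in 1.79% of 32851 RefSeq promoter windows of 300 bases and in 0.918% of 73449 regions (200 bases about the summit). For the AP-1 genes it was in 1 of 11 promoter windows, that of Maff, and in 0 of the 87 regions. The TGACGTCA printed for Maff is not wholly within the 200 bases scanned at its promoter region. The CArG box was found in 0.866% of all regions and in 1.63% of the promoter windows, with 0 of the 11 of the AP-1 genes. TGANTCA was in 9 of the 87 AP-1 gene regions (10.3%) and in 6.61% of all regions, and the 9 included the Fosl1 promoter. Among RefSeq promoter windows it was in 7.81% of all and in 0 of the 11 of these genes, which include none for Fosl1. TGACATCA was in 2 of the 87 (2.3%), 1 of them the Jun promoter, and in 1.25% of all regions and 3.62% of the promoter windows. Of the 11 windows of the AP-1 genes, 2 held it (Jun and Maff). The CArG box was in 3 of the 87 (3.45%), at Fos +12.2 kb, the Fosb promoter and Junb +2.1 kb. The box printed for Fos lies outside the 200 bases scanned at its promoter region, whose summit over all peaks was at -67 bases, and is not among the 3. TGCTGAC was in 5 of the 87 (5.75%) against 4.6% of all, and TAATCC in 9 (10.3%) against 15.4%. RefSeq windows matched 9 of the 10 genes, all but Fosl1, and for Fosl2 and Jund they lie at other starts than those used here. A match describes letters, not binding.

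The density of accessible regions varied among these genes. A median of 12.8 regions per 100 kb of window was found over the 10 genes, against 4.92 over all coding genes. Of the 87 regions, 51 (58.6%) were called in all 18 libraries, against 33.6% of all regions. Per window, the median share over coding genes with a region was 44.4%. By gene this share ran from 20% at Fosl2, 33.3% at Batf and 37.5% at Atf3 to 84.6% at Junb, and Fosl2, Jun and Maff held 5 regions each, the median of all coding genes. All 11 regions at a member's own promoter were called in all libraries, as were 21 of 24 at promoters of other genes and 19 of 52 at no promoter. The regions called everywhere had a median width of 915 bp and those called in some libraries one of 283.5 bp. Many regions belong to neighbours: 52 of the 87 lay nearest to a start of the member itself.

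**Figure D1:**
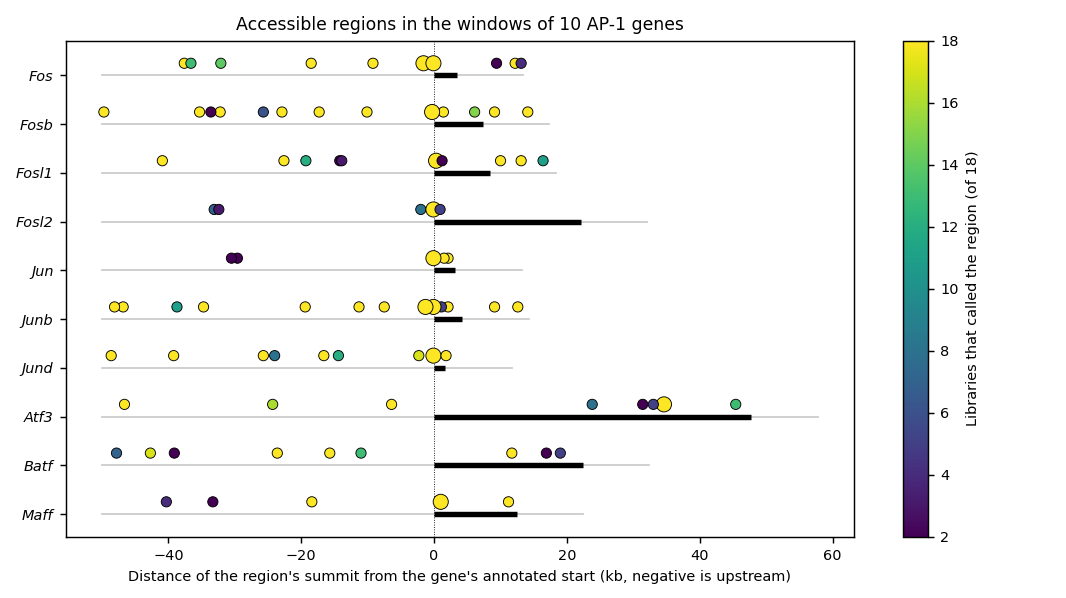
Each point is a region, placed by the distance of its summit from the start of the AP-1 gene in kb (grey line, window; black bar, gene) and coloured by the number of libraries of 18 that called it; large points overlap the promoter of the AP-1 gene. The large points are all at 18, Batf has none, and the large point of Atf3 lies 34.6 kb inside its gene.

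Among the FOS genes, Fos, the prototype immediate early gene, held 10 regions, of which 6 were called in all libraries. Of these, 2 intergenic regions, at +12.2 kb and -18.5 kb, had median rank percentiles of 90.1 and 88.5. A rank percentile places the highest -log10 q of a region among the 24751 regions called in all 18 libraries, within each library, with 100 the highest. The promoter had a median of 59.7 (lowest 47.8, highest 74.5), and a second region at -1.6 kb, which reaches the promoter, had a median of 61.9.

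Fosb, a partner of JUN proteins known for its accumulation in stimulated neurons, had 13 regions, 10 of them in all libraries. Its promoter had a median rank of 65.9, and a region at -10.1 kb, in an exon of the long non-coding gene D830036C21Rik, had one of 96.0 and was the highest of all 51. Fosl1 and Fosl2 encode FRA proteins that lack a strong activation domain. Their promoters were called in all 18 libraries but ranked low, with medians of 23.5 (8.86 to 37.0) for Fosl1 and 10.9 (3.31 to 29.1) for Fosl2. Fosl2 was the sparsest FOS gene, with 5 regions, of which only the promoter was called in all libraries.

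Among the JUN genes, Jun, the partner of most AP-1 pairs, held 5 regions. Its promoter ranked at a median of 77.1 (68.6 to 86.4) and among member promoters Atf3 alone had a higher median. Both other Jun regions called everywhere lay within the gene, at +1.5 kb and +2.1 kb, with medians of 25.6 and 7.12. Junb, induced by growth factors and often a brake on JUN, held 13 regions, 11 of them in all libraries, including its promoter (median 57.3), the region at -1.3 kb (46.7) and the one at +2.1 kb (38.1). Jund, the JUN gene that is expressed broadly and constitutively, held 9 regions, and its promoter had a median of 64.4.

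Atf3, a stress-induced partner of JUN, has 2 annotated starts. The downstream start was called in all 18 libraries with the highest median rank of any member promoter, 79.8 (69.3 to 85.8), and the upstream start in none. Its range overlapped that of Jun. Batf, which pairs with JUN and is known from lymphocytes, had no promoter peak in any library, although 3 of its 9 regions, at -23.6, -15.7 and +11.7 kb, were called in all 18. Maff, a small MAF protein without an activation domain, showed a call at 2 of 3 starts in all libraries and at its first start in none. The 250 bases before the 3 uncalled starts (Atf3, Batf, Maff) were 54.0%, 43.6% and 48.0% G and C with 5, 6 and 4 CG pairs. Before the 12 called starts these values ran from 48.4% with 8 pairs at Fosl1 to 74.8% at Fosl2, and up to 33 pairs at Jund.

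Thus 9 of 10 member promoters were called in all libraries and 1 in none, while 53.2% of coding promoters were called in all and 35.8% in none. The other lists were looked up in the same way. All 15 annotated promoters of upstream kinases and serum response factors, 19 of 21 of AP-1 relatives (ATF, CREB, BACH, MAF and NFE2 genes) and 15 of 18 of other immediate early genes were called in all libraries. Of 20 genes known as AP-1 targets, 4 were, and 8 were called in none: the matrix enzymes Mmp3, Mmp9 and Mmp12, their inhibitor Timp1, the urokinase receptor Plaur, the glial filament gene Gfap, the cytokine Il6 and the regeneration gene Sprr1a. The lists' promoters were not tested against other genes.

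The first comparison asked whether age changed which AP-1 regions were called, setting 6 control libraries at 18 months against 6 at 3 months. No region passed Fisher's exact test: of the 87, 4 could reach a two-sided p under 0.05, and 0 did in either direction. Over all 9868 regions that could, 3.19% were called more often at 18 months and 0.385% more often at 3 months at an unadjusted p under 0.05, and 0 after adjustment. The nearest cases were Fosl1 -19.3 kb, called in 6 of 6 libraries at 18 months and 2 of 6 at 3 months, and Atf3 +33.0 kb, called in 4 of 6 and 0 of 6 (exact p = 0.0606 each, the smallest these totals allow).

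**Figure D2:**
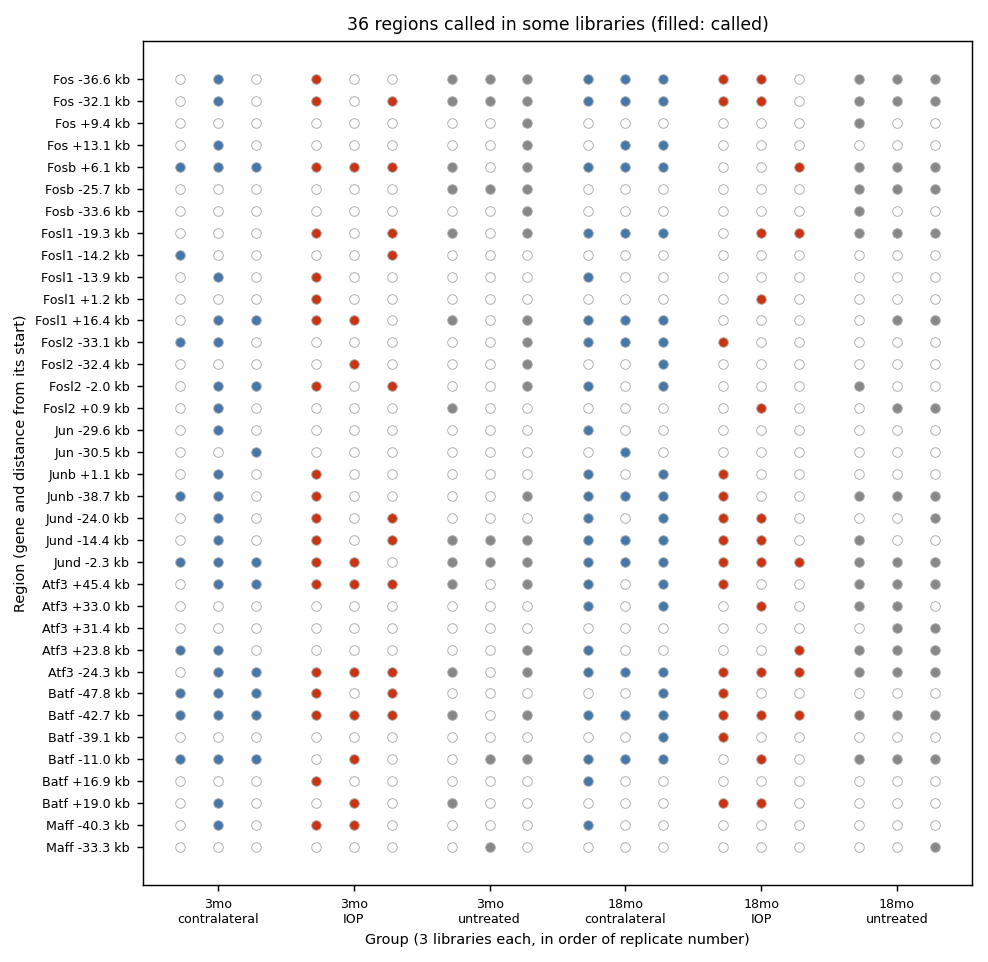
Lines from top to bottom are the 36 AP-1 gene regions called in some libraries, positions from left to right the 18 libraries in 6 groups, and a filled circle is a call. Fosb -25.7 kb is filled in the 6 untreated libraries and in no other, and Fosl1 +16.4 kb is empty in the 3 libraries of IOP at 18 months.

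The number of regions called per window did not pass the test for any member by age. Atf3 had the largest difference. In the 3-month controls it had 4, 6 and 5 regions (contralateral) and 5, 3 and 6 (untreated), and at 18 months 7, 4 and 6 (contralateral) and 7, 8 and 7 (untreated). The untreated groups did not overlap and the contralateral ones did. How many of all genes lacked overlap between the untreated groups was not recorded. The means were 6.5 ± 1.38 and 4.83 ± 1.17 (SD, n = 6), a difference of 1.67 (exact permutation p = 0.0823, adjusted p = 1). Without 18-month contralateral replicate 2 the difference was 2.17 (exact permutation p = 0.013), and without 3-month contralateral replicate 2 or untreated replicate 6 it was 1.9 (exact permutation p = 0.0498). With equal numbers of peaks per library it was 0 (exact permutation p = 1). Over all 16678 genes tested, 3.15% had more and 0.168% fewer regions at 18 months at an unadjusted p under 0.05, the median difference was 0.333, and 0 passed after adjustment. Fosl2, Jun, Batf and Maff had differences of 0, and the other 5 genes differed by 0.167 to 0.667. Among these, Junb differed by 0.933 without 3-month contralateral replicate 2 (exact permutation p = 0.0325). The p-values with a library left out are unadjusted, and the share of all genes passing in those settings was not recorded.

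**Figure D3:**
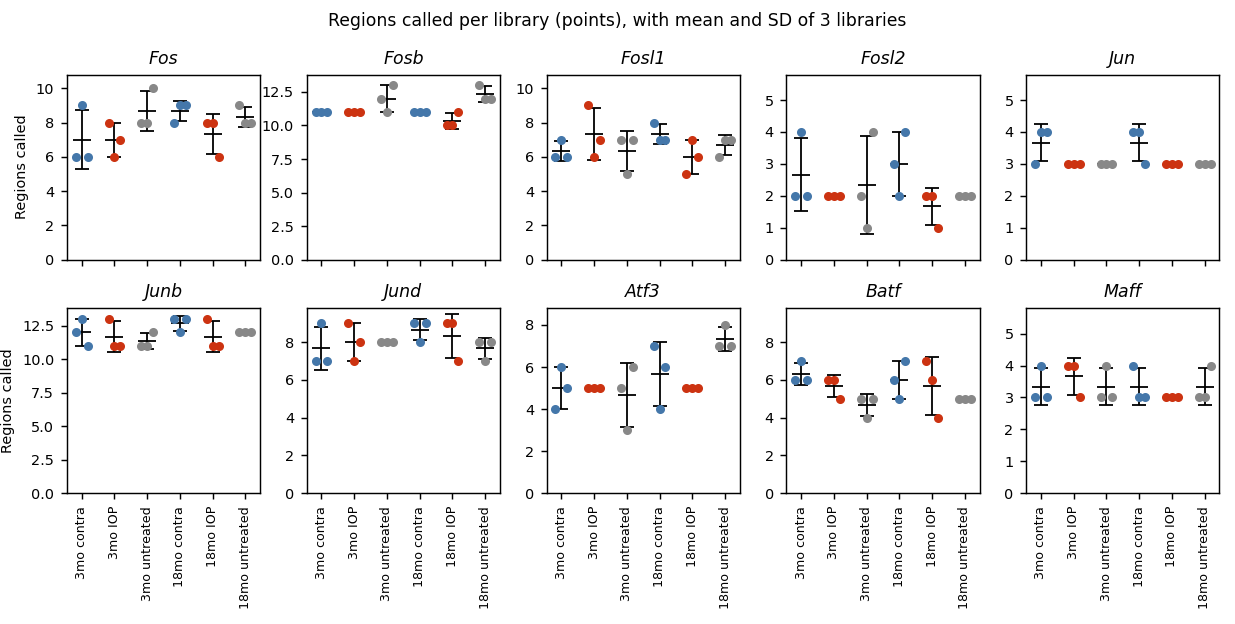
Points are the number of regions called in the window of each gene in each library, and bars the mean and SD of 3 libraries, for contralateral (blue), IOP (red) and untreated (grey) retinas. The largest age difference, of 1.67 regions, is in the Atf3 panel, and Jun, Atf3 and Maff have 1 value in all 3 libraries of IOP at 18 months.

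By rank, 0 of the 51 regions called everywhere passed for age (limma, Benjamini-Hochberg over 24751 regions, of which 0.743% were higher and 0.756% lower). At an unadjusted p under 0.05, 3 of the 51 regions were lower at 18 months and 0 higher, where 6.33% of all regions were lower and 6.81% higher. These were Fosl1 +10.0 kb, at the Ccdc85b promoter (-6.05 ± 2.14 points, SE), Fosl1 +13.1 kb, at the Fibp promoter (-11.4 ± 4.53), and Junb -46.8 kb, at the Asna1 promoter (-7.11 ± 2.63), all promoters of neighbours. Their adjusted p-values were 0.21, 0.283 and 0.236 (limma).

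The second comparison set IOP against contralateral retinas at each age. Stratified by age, 4 of the 87 regions could reach a p under 0.05 and 0 did, whereas over all 5572 such regions 1.62% were called more often and 3.43% less often after IOP at an unadjusted p under 0.05, and 0 after adjustment. No AP-1 region was gained in all 3 IOP libraries with no call in the 3 contralateral ones, at either age, and none was lost at 3 months (0.217% gained and 0.241% lost at 3 months over all regions, 0.239% gained at 18 months). At 18 months 1 of the 87 was lost, Fosl1 +16.4 kb, where 2.23% of all regions were. With 3 libraries against 3 the smallest exact p is 0.1.

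Fosl1 +16.4 kb (chr19:5463757-5464074) lies in an intron of Fibp. It was called in 3 of 3 contralateral and 0 of 3 IOP libraries at 18 months, but in 2 of 3 of either group at 3 months and in 2 of 3 untreated libraries at each age. Its calls ranked low, between the 6.65 and 38.9 percentile of their libraries. When every library was reduced to its 36011 strongest peaks, 0 regions were lost, and the 18-month IOP libraries held fewer peaks (36011 to 48723) than the contralateral ones (51166 to 60755). The part of peak number in this loss was not tested beyond that.

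In the windows, every member had fewer regions after IOP at 18 months, by 0.333 to 1.33, and over all 15748 genes tested the median change was -0.667. No member had groups without overlap, whereas 11.0% of all genes were lower and 0.286% higher without overlap. Jun went from 4, 4 and 3 regions in contralateral libraries to 3, 3 and 3 after IOP, and at 3 months from 3, 4 and 4 to 3, 3 and 3, so that each IOP library held the 3 regions called everywhere (exact permutation across ages, p = 0.08, adjusted p = 1). Without 3-month contralateral replicate 1 or 18-month contralateral replicate 3, the Jun change was -0.833 (exact permutation p = 0.02, unadjusted, with no share over all genes recorded). At 3 months the members changed by -0.667 to 1, with a median of 0 over all genes, and again none was without overlap (0.67% of all genes lower, 0.384% higher). Across ages 0 members passed at an unadjusted p under 0.05 (2.0% of all genes lower, 0.169% higher), nor did the change at 18 months differ from that at 3 months for any member (0.751% of all genes lower). The direction depends on the scale: with each library's number divided by the regions it called, 6 of the 10 changes across ages turned from lower to higher, Jund was higher by 0.977 regions (exact permutation p = 0.025) and Fosl2 changed by -0.689 regions (exact permutation p = 0.025), both before adjustment. The share of all genes passing at this scale was not recorded.

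Among the regions called everywhere, ranks rose at a few after IOP. Averaged over both ages, 2 of the 51 ranked higher after IOP at an adjusted p under 0.05 and 0 lower, where 0.788% of all 24751 regions were higher and 0.263% lower (limma). They were the Maff promoter and Junb +2.1 kb. At 18 months alone 1 of the 51, the Maff promoter, was higher (0.545% of all regions higher, 0.21% lower), and at 3 months alone 0 (0.137% higher, 0.0121% lower). The median change was 1.22 points over the 51 and 0.00135 over all regions.

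At the Maff promoter (chr15:79347141-79348470), the ranks at 3 months were 14.7, 12.4 and 8.33 in contralateral and 17.9, 28.6 and 33.8 in IOP libraries. At 18 months they were 2.56, 17.2 and 4.48 in contralateral and 22.1, 43.4 and 47.1 in IOP libraries. The groups did not overlap at either age. The change was 22.2 ± 4.52 points (SE, adjusted p = 0.0262, limma), made of 15.0 ± 6.4 at 3 months (adjusted p = 0.855) and 29.5 ± 6.4 at 18 months (adjusted p = 0.0462), and the difference between ages did not pass. Untreated retinas had 22.5, 23.1 and 37.4 at 3 months and 19.3, 13.8 and 26.0 at 18 months, which overlapped the IOP libraries at both ages. The value of 13.8 at 18 months lay within the contralateral range. On average the untreated libraries lay above the contralateral ones by 13.8 ± 4.52 points (adjusted p = 0.0319, limma).

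At Junb +2.1 kb (chr8:84976220-84976791), which spans the CArG box printed above, contralateral libraries ranked at 27.2, 28.7 and 38.0 and IOP libraries at 36.5, 55.0 and 52.7 at 3 months. At 18 months these were 15.4, 29.2 and 25.6 against 40.2, 43.0 and 51.6. The groups overlapped at 3 months only, where contralateral replicate 3 stood above IOP replicate 1. The share of all regions without overlap at 18 months was not recorded. The change was 19.2 ± 3.98 points (adjusted p = 0.0278, limma), with 16.8 ± 5.63 at 3 months and 21.5 ± 5.63 at 18 months (adjusted p = 0.577 and 0.104). Untreated libraries were at 37.2, 38.2 and 45.7 at 3 months, all within the IOP range and 1 also within the contralateral range. At 18 months they were at 40.3, 42.6 and 26.3, with the first pair within the IOP range and the last within the contralateral range. On average they lay above the contralateral ones by 11.0 ± 3.98 points (adjusted p = 0.0474, limma). The Junb promoter itself changed by 1.27 ± 3.09 points.

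The Fosl1 promoter was next, at 13.7 ± 3.37 points (adjusted p = 0.0697, limma), and did not pass. Its ranks were 22.0, 8.86 and 16.4 against 17.5, 25.9 and 34.0 at 3 months and 13.3, 15.5 and 12.5 against 24.4, 32.1 and 37.0 at 18 months. The groups overlapped at 3 months and not at 18, with the share of all regions again not recorded. At an unadjusted p under 0.05, 8 of the 51 regions were higher and 1 lower, where 5.54% of all regions were higher and 5.47% lower. Beside these 3, the higher ones were Fosb -22.9 kb, Jund -16.6 kb, the Fosl2 promoter (9.93 ± 3.2 points), Fos -1.6 kb (6.25 ± 2.06) and Junb -7.5 kb, and the lower one was the Fosb promoter (-6.52 ± 2.63). Their adjusted p-values ran from 0.154 to 0.419 (limma). At the Jun and Atf3 promoters the changes were 0.273 ± 3.12 and 1.4 ± 3.44 points.

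**Figure D4:**
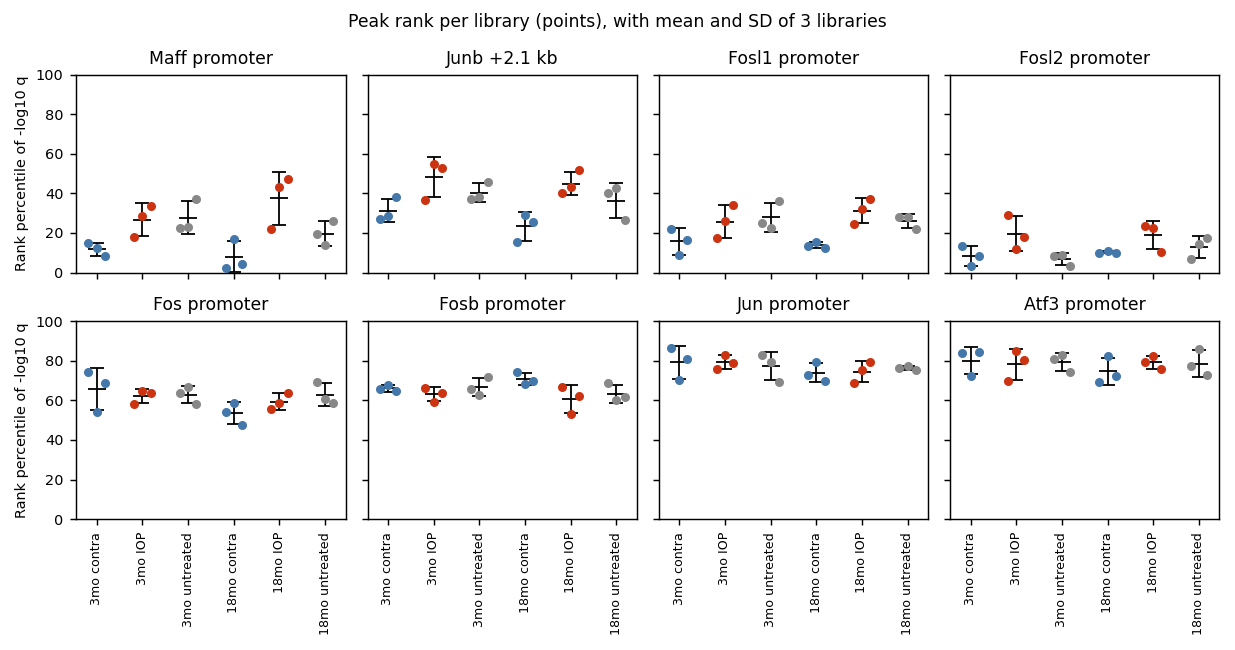
Points are the rank percentile of each library at 7 member promoters and at Junb +2.1 kb, with the mean and SD of 3 libraries (blue, contralateral; red, IOP; grey, untreated). In the Maff panel the IOP points lie above the contralateral points at both ages, and untreated points overlap them.

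Both calls depend on the scale and on single libraries. With quantile-normalized log2 fold enrichment in place of rank, neither passed (Maff 0.34 ± 0.11, adjusted p = 0.321, and Junb 0.15 ± 0.07, adjusted p = 0.481, limma), and with replicate number as a block neither did (22.2 ± 4.06 and 19.2 ± 3.07 points, adjusted p = 0.132 and 0.104). With the class of the shortest peak as a covariate both passed (adjusted p = 0.00926 and 0.0166) and the Fosl1 promoter did too (0.0311). Leaving out 1 library at a time, the change stayed between 19.8 and 26.1 points at Maff and between 17.2 and 22.1 at Junb +2.1 kb, while the adjusted p ran from 0.00338 to 0.0786 and from 0.00714 to 0.0857, and without 3-month IOP replicate 2 or 3, 18-month contralateral replicate 1 or 3, or 18-month IOP replicate 2 or 3, 0 of the 51 regions passed.

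**Figure D5:**
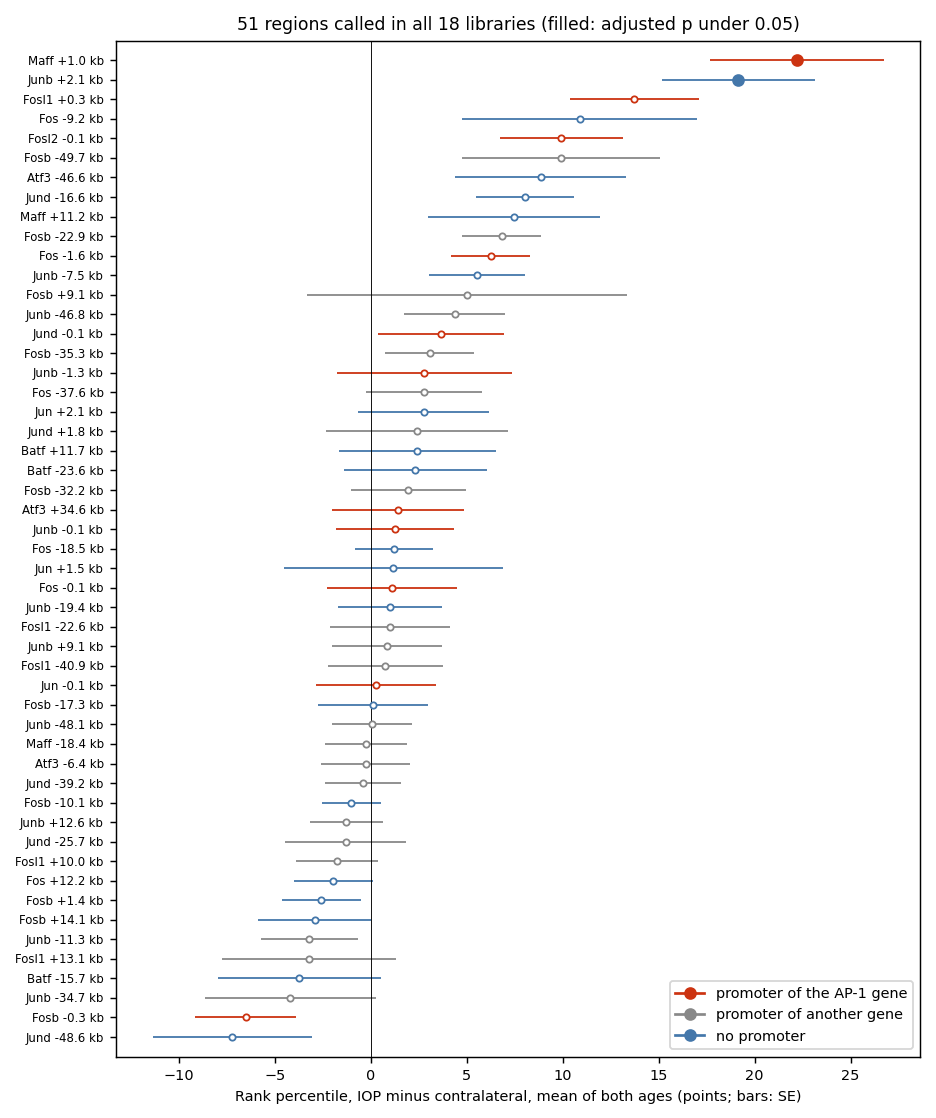
Points are the change in rank percentile with IOP, averaged over both ages, at each of the 51 regions, with the SE of the limma fit, coloured by whether the region lies at a promoter. The filled points, Maff +1.0 kb and Junb +2.1 kb, are at 22.2 and 19.2 points, and the lowest point is Jund -48.6 kb.

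The 2 kinds of control were also compared, a comparison added after the data were seen. Untreated libraries ranked 7 of the 51 regions higher and 6 lower than contralateral ones (limma, 14.3% and 15.7% of all regions). The extremes were Atf3 -46.6 kb, higher by 21.1 points, and Fosb -22.9 kb, with a change of -16.4 points. Fosb -25.7 kb, a stretch of 127 bp in an intron of D830036C21Rik chosen after its values were seen, was called in 6 of 6 untreated and 0 of 12 other libraries (exact p = 0.00216 over the 12 controls, adjusted p = 0.0872), as were 0.181% of all regions. It is printed on the strand of Fosb, was absent from the contralateral and IOP lists at both ages, and holds none of the 6 motifs. In 7 of those 12 libraries the shortest listed peak, at 148 to 157 bp, was longer than the region, and in the other 5 it was 114 to 122 bp. The part of this limit in the missing calls was not tested.
Fosb -25.7 kb: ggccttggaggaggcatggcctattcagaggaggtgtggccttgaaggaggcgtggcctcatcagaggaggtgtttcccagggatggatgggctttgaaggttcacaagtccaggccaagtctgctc

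The same test of region number was read for the related gene lists. Of 19 AP-1 relatives tested for IOP across ages, Atf5 was lower at an unadjusted p under 0.05, and of 14 AP-1 targets Fgf2 was higher (2.0% of all genes lower, 0.169% higher), while none of 14 upstream and 18 immediate early genes passed. For the IOP change at 18 months minus that at 3 months, Atf7 among 19 relatives and the kinase gene Mapk10 among 14 upstream genes were lower (0.751% of all genes). By age no gene of the lists passed at an unadjusted p under 0.05 (3.15% of all genes higher, 0.168% lower), and 0 genes of any list passed after adjustment in any comparison. With IOP at 18 months the median change was -1 for relatives, -1 for upstream genes, -0.667 for immediate early genes and -0.333 for targets, beside -0.667 over all genes.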

How the data were processed

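ATAC-seq peak lists of 18 bulk retina libraries were analysed. Per the labels, the authors used mm10 with STAR 2.7.8a, MACS2, HOMER, edgeR and bedtools 2.29.2; peaks were called per library at a q-value of up to 0.05. The deposited columns hold an integer score, a fold enrichment ratio over background and −log10 p- and q-values, with no counts. The score was not used. Peaks overlapping by 1 bp were merged, and regions called in at least 2 libraries were kept. A promoter ran from 1000 bp before to 100 bp after any annotated start.

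Calls were compared by Fisher's exact test (age) and an exact test stratified by age (IOP), the number of regions per window by exact permutation (924, 20 or 400 arrangements) over all coding genes, and ranks of −log10 q by limma 3.58.1 (R 4.3.3), each with Benjamini-Hochberg adjustment over the features tested. These were the regions whose exact p could fall under 0.05 (9868 by age, 5572 by IOP), the genes whose numbers varied, and the 24751 regions called in all libraries. Python 3.11.15, numpy 2.4.6, pandas 2.3.3 and scipy 1.17.1 were used, and the tests were checked on simulated data. No label says which animals gave the libraries, so p-values measure the spread between these libraries. No pair of libraries differed at fewer than 10782 regions. All 10 members were named, with their promoter regions, regions with an unadjusted p under 0.05 or exclusive to a group, and the strongest nearby regions. The members and gene lists were chosen with earlier results of these data known. Of 17 upstream genes, 15 symbols matched the annotation. Alternatives were stricter or equal numbers of peaks, 50% overlap, all merged regions, a window of 10 kb before and 1 kb after the gene, other strata, covered length, scaled numbers, fold enrichment in place of rank, a replicate block and leaving out each library.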

Additional observations from a re-analysis of the deposited data

Results flagged for a closer look

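Groups of 6 control libraries per age were checked with Dixon's ratio for 20 sets of window numbers and 24 sets of ranks, and chance would mark about 1 in 20. A single value stood apart. The region at Junb -1.3 kb ranked at 26.8 in 3-month contralateral replicate 2. The other 5 control libraries of that age lay between 46.7 and 56.7. Replicate 2 had the most peaks (66160), but 3-month untreated replicate 6, with 66114, ranked at 48.5. Replicate 2 was also the only 3-month control with a shortest peak of 114 to 122 bp (116 bp). The other libraries of that class ranked at 30.8 (3-month IOP replicate 1), 28.8 and 23.2 (18-month contralateral replicates 1 and 3) and 35.2 (18-month IOP replicate 1). With a shortest peak of 148 to 157 bp, the contralateral and 3-month IOP libraries ranked at 46.48 to 52.01. The 18-month IOP libraries of both classes lay together, between 35.2 and 36.3. The part of the class in the low value was not tested for this region. The part of the low value in the age comparison was not tested beyond leaving that library out, after which 0 of the 51 regions passed by age.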

How the results depend on the processing

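Peak lists carry neither reads nor signal outside peaks, so a missing call gives no level, and 3 libraries a group cannot reach an exact p under 0.1. The age results on calls and on ranks, and the rank results at 3 months and for the difference between ages, kept their counts of AP-1 regions under every alternative other than leaving out a library. For calls by age this is a weak check, since few AP-1 regions could reach the threshold. They numbered 4 in the main setting, 1 stratified by kind of control, 2 by class of the shortest peak, 0 in the replicate block and at most 13, at 50% cover. With equal numbers of peaks or the narrower window, 0 regions were lost with IOP at 18 months. At 50% cover, 1 region was called more often after IOP, 1 was gained and 2 were lost at 18 months. For the number of regions, stricter peaks left 1 member without overlap between IOP and contralateral libraries at an age, covered length 4, and scaling to the called regions 2, and across ages 1 member passed by covered length and 2 by scaling. Shares over all regions or genes were not recorded for these counts, so they cannot be read as particular to AP-1 genes. In the main setting 11.0% of all genes were lower without overlap at 18 months.

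No member's difference that turned sign had passed its test. Scaled to the called regions, the age differences were -0.711 (Fosb), -0.298 (Junb) and -0.297 (Jund) regions and the IOP differences 0.275 (Fos), 0.898 (Fosb), 0.62 (Fosl1), 0.714 (Junb), 0.366 (Atf3) and 0.103 (Batf). With equal numbers of peaks, Jund was at -0.667 by age, and Fosl1 and Atf3 at 0.167 each by IOP. In the narrower window Fosl1 and Batf were at 0.333 each by IOP.

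By rank, 0 regions passed for IOP, as a mean of ages or at 18 months, with fold enrichment in place of rank or with the replicate block. Numbers shared across groups were not shown to pair libraries: correlations of same-numbered libraries' deviations ran from -0.453 to 0.333. In the block fit 0 regions passed in every comparison of calls, where no AP-1 region could reach the threshold, and 0 members by number of regions.

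Leaving out 1 library at a time, the counts of AP-1 regions ranged from 0 to 1 for more often called at 18 months (1 without 3-month untreated replicate 4 or 6, 18-month contralateral replicate 2 or untreated replicate 6), 0 to 1 for less often called after IOP (1 without 3-month contralateral replicate 3 or IOP replicate 2, or 18-month IOP replicate 1 or 2), 0 to 1 gained and 0 to 2 lost at 3 months, and 0 to 1 gained and 1 to 3 lost at 18 months (3 without 18-month IOP replicate 1, and 2 without IOP replicate 2 or 3 or contralateral replicate 1 or 2). Members passing by number ranged from 0 to 2 (age), 0 to 1 (IOP across ages) and 0 to 1 (difference between ages, 1 without IOP replicate 2 of either age), and those without overlap at an age from 0 to 2. For calls and for the number of regions, shares over all regions or genes were not recorded with a library left out. Regions passing by rank ranged from 0 to 4 for IOP as a mean of ages and from 0 to 1 at 18 months. The highest count, 4, came without 3-month IOP replicate 1. The Fosb age difference ranged from -0.1 to 0.467 and the Fosl1 IOP difference from -0.583 to 0.167 regions.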
